A study of Bos taurus with 24 samples.

Results

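The 47 DNA replication genes described here encode the proteins that license replication origins, unwind and copy DNA at the fork, and supply its nucleotides. They are the rows of the count table whose gene symbol stands on a list of such genes, and all 47 were found among the 11937 genes in the table. RNA sequencing measured them in cattle (Bos taurus) satellite cells labelled as WT, the resident muscle progenitors, here isolated from longissimus dorsi. The series asks how fibroblasts, through the medium they share, act on satellite cells that divide and then differentiate. Satellite cells were grown with fibroblasts on co-culture plates with pores of 0.4 µm (coculture) or without them (monoculture), and each culture was sampled in proliferation and at 24 h and 72 h after differentiation was started.

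There were 4 libraries in each of 6 groups: coculture and monoculture in proliferation, coculture and monoculture at 24 h, and coculture and monoculture at 72 h. All groups held a mixture of 3 satellite cell lines at passage 3, seeded at 8000 cells/cm2 and fed a high glucose medium (DMEM) containing 20% fetal bovine serum, and the fibroblasts were at passage 10. On day 5 the serum was replaced by 10% horse serum, which starts differentiation. The lines were mixed, so no value belongs to a single line. The labels do not state whether monoculture wells had an empty insert, nor that the replicates are separate cultures. The p-values therefore measure the spread between these libraries, which may be technical.

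As background, a cell copies its DNA once per division. In G1 the origin recognition complex, CDC6 and CDT1 load the MCM2 to MCM7 helicase core onto origins. In S phase CDC45 and the GINS complex turn that core into an active helicase, and polymerases, the sliding clamp PCNA and its loader copy the strands, while ribonucleotide reductase and thymidylate synthase supply deoxynucleotides. Many of these genes are transcribed by E2F factors in cells that enter S phase, and satellite cells leave the cell cycle as they differentiate into myotubes.

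Library totals ran from 11.5 to 34.96 M counts (M for mega), and each of the 47 genes had at least 13 counts in every library, so a low-count filter removed none. Levels are given in CPM, a gene's counts divided by its library's total in M counts, with totals scaled between libraries by edgeR's TMM method. CPM is not divided by gene length, so levels are compared between libraries and not between genes. Differences are log2 fold changes with standard errors (SE) from edgeR's quasi-likelihood test, and a gene is called higher or lower at an adjusted p (Benjamini-Hochberg, over all 11937 genes) under 0.05. In bulk RNA, fewer cells in S phase and less RNA of these genes per cell cannot be told apart.

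Some libraries stood apart. Nuclear ribosomal RNA took 4.07% of counts in coculture 24 h replicate 2, 2.24% in coculture 72 h replicate 1, and 2.14% and 1.76% in monoculture 72 h replicates 3 and 4. Library names place coculture 24 h replicates 3 and 4 and the whole coculture 72 h group in sequencing lane 7 and every other library in lane 6, so within the 72 h libraries lane and culture cannot be told apart. The share of mitochondrially encoded counts was lower in coculture at each time, for example at 72 h a mean of 1.88% with an SD of 0.062 in coculture, against 2.43% with an SD of 0.16 in monoculture (n = 4 each). Of 10 markers of satellite cells and myoblasts the table lists 3 (DES, ITGA7 and NCAM1), and PAX7, MYF5, MYOD1 and MYOG are not among its genes, which all have at least 6 counts in every library. Those 3 markers together ranged over 157 to 174 CPM in coculture and 112 to 117 CPM in monoculture in proliferation, over 153 to 180 and 234 to 256 CPM at 24 h, and over 157 to 182 and 332 to 363 CPM at 72 h, coculture first each time. The 6 listed of 8 fibroblast markers, collagen genes among them, summed to 40113 to 41304 CPM in coculture and 33011 to 35626 CPM in monoculture in proliferation, with 58926 to 66660 and 60980 to 67977 CPM at 24 h and 82737 to 84751 and 87117 to 98249 CPM at 72 h in the same order. The 3 listed of 4 pericyte markers did not overlap between cultures at any time, with 569 to 612 CPM in coculture and 462 to 490 CPM in monoculture in proliferation, 442 to 479 and 538 to 647 CPM at 24 h, and 208 to 238 and 354 to 385 CPM at 72 h. The 2 listed of 3 adipocyte markers had 13.1 to 15.1 CPM in coculture and 14.3 to 17.9 CPM in monoculture in proliferation, 17.3 to 18.5 and 24.1 to 28.0 CPM at 24 h, and 7.11 to 9.50 and 11.5 to 13.5 CPM at 72 h. The 1 listed of 4 leukocyte markers stayed between 0.490 and 2.17 CPM in all libraries, and no endothelial marker of 4 was listed. Such sums lean on the markers with most counts and can hide opposite directions within a list. Of all 15 listed markers, 6 were called higher and 4 lower in coculture in proliferation (30.3% and 28.7% of all genes). At 24 h the counts were 3 and 6 (11.5% and 12.2%), and at 72 h 2 and 8 (25.1% and 25.4%). The part of lane, RNA class and marker levels in the results was not tested, except where values by lane or without a library are given.

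As a group, replication genes were at their highest in proliferating coculture and at their lowest in monoculture at 72 h. Summed over the 47 genes, the level in proliferation was 1540 ± 25.4 CPM in coculture and 1363 ± 18.8 CPM in monoculture (SD, n = 4 each). At 24 h it was 1226 ± 59.7 CPM in coculture and 1164 ± 62.2 CPM in monoculture, and at 72 h 956 ± 25.7 CPM in coculture and 725 ± 22.9 CPM in monoculture. Coculture libraries lay wholly above monoculture libraries in proliferation and at 72 h, and the cultures overlapped at 24 h. The ratio of coculture to monoculture was 1.13 in proliferation, 1.05 at 24 h and 1.32 at 72 h. The sum leans on genes with many counts. Gene by gene, the highest group mean was in proliferating coculture for 31 genes and in proliferating monoculture for 14. It was in coculture at 24 h for 2, and the lowest mean was in monoculture at 72 h for 43. These counts were not taken over all genes, so no background share stands beside them.

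**Figure D1:**
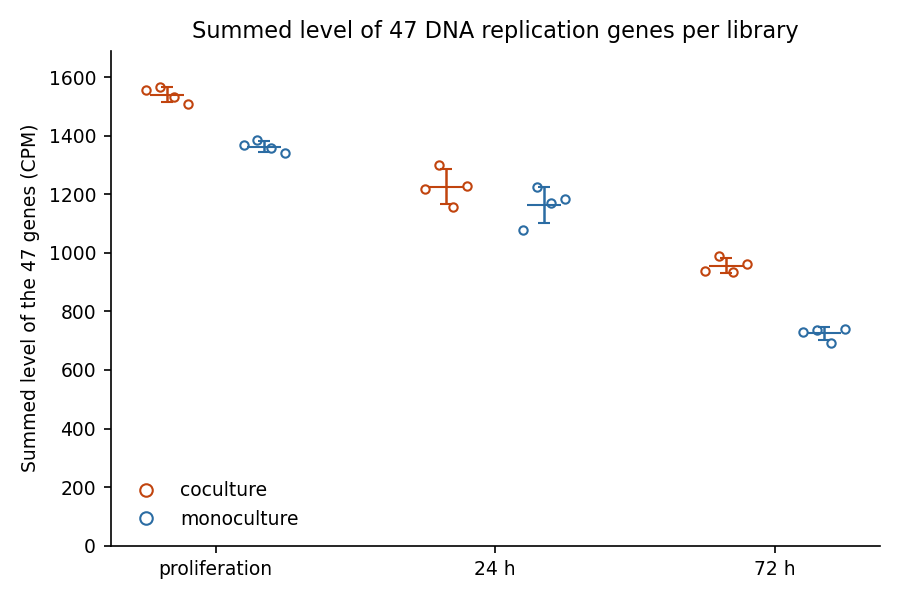
Summed level of the 47 DNA replication genes (CPM, y axis) in each library, by time (x axis) and culture; open circles are libraries, and the line and bars are the mean and SD of 4. The 4 coculture libraries at 72 h sit between 935 and 991 CPM and the 4 monoculture libraries between 691 and 741 CPM, while at 24 h the cultures overlap.

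In proliferation the helicase core genes MCM5, MCM3 and MCM2 and the licensing factor CDT1 had the largest increases in coculture, and some origin recognition and clamp loader genes were lower. Of the 47 genes, 22 were called higher and 6 lower in coculture, which is 46.8% and 12.8% of them, and of all genes tested 30.3% were called higher and 28.7% lower. The median log2 fold change was 0.20 over the 47 genes and 0.00 over all genes. The coculture libraries lay wholly above the monoculture libraries for 20 of the 47 genes and wholly below for 7, against 27.1% and 25.9% of all genes.

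Among the helicase core genes 5 of 6 were called higher, with a median log2 fold change of 0.61. MCM5 had 61.0, 57.8, 65.0 and 57.8 CPM in coculture, against 33.0, 32.6, 33.2 and 31.9 CPM in monoculture. MCM3 had 49.6, 54.8, 52.8 and 50.8 CPM in coculture, against 31.5, 29.1, 30.8 and 32.0 CPM in monoculture. MCM2 had 79.4, 79.1, 76.4 and 73.0 CPM in coculture, against 45.4, 51.7, 46.95 and 45.2 CPM in monoculture. For these 3 subunits every coculture library was above every monoculture library, by log2 fold changes of 0.88 (SE 0.058, adjusted p = 6.68e-13), 0.76 (SE 0.068, adjusted p = 2.3e-10) and 0.70 (SE 0.065, adjusted p = 3.43e-10). MCM7 (0.52) and MCM4 (0.43) were also called, and MCM6, at 0.11, was not (adjusted p = 0.0914).

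CDT1, which brings the helicase core to origins and is destroyed in S phase, had 15.01, 16.6, 13.6 and 13.9 CPM in coculture, against 8.69, 8.03, 10.0 and 8.87 CPM in monoculture. The groups did not overlap and differed by 0.75 on the log2 scale (SE 0.10, adjusted p = 3.41e-07). CDC6 (0.20), its partner in loading, and GMNN (0.03), which encodes the CDT1 inhibitor geminin, did not pass the test. Of the helicase activation genes, GINS4 (0.41), GINS2 (0.41), CDC45 (0.31) and GINS1 (0.23) were called higher, and GINS3 (0.23) was not. The call of GINS1 was lost without coculture replicate 2 (adjusted p = 0.0522).

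POLD1, the catalytic subunit of DNA polymerase delta, had 38.3, 38.9, 38.8 and 35.9 CPM in coculture, against 26.9, 25.2, 24.0 and 25.1 CPM in monoculture (log2 fold change 0.59, SE 0.067, adjusted p = 1.73e-08). Every coculture library exceeded every monoculture library. The delta subunit POLD2 (0.39), the epsilon catalytic subunit POLE (0.43) and the alpha subunit POLA2 (0.39) were called higher too, while POLA1 (-0.08), POLD3 (0.09), PRIM1 (0.07) and PRIM2 (-0.01) did not pass. FEN1 (0.50), which trims Okazaki fragments, and LIG1 (0.47), which seals them, were higher, as were RFC2 (0.48) of the clamp loader and UHRF1 (0.48), which carries DNA methylation across replication. Among nucleotide supply genes the thymidine kinase TK1 (0.53) and the reductase subunit RRM2 (0.27) were called higher, and RRM1 (0.04), TYMS (0.09) and DUT (-0.00) were not. SLBP (0.20), which binds histone mRNA, was called higher, and PCNA (0.09) was not.

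The genes called lower in proliferating coculture were ORC4, RPA1, ORC6, RFC1, TOPBP1 and RFC3. ORC4, a subunit of the origin recognition complex, had 14.4, 13.5, 12.6 and 11.6 CPM in coculture, against 19.5, 20.2, 21.3 and 20.5 CPM in monoculture (log2 fold change -0.64, SE 0.071, adjusted p = 9.04e-09). RPA1, the large subunit of the single-strand binding protein RPA, had 125, 125, 125 and 127 CPM in coculture, against 157, 163, 157 and 162 CPM in monoculture (log2 fold change -0.35, SE 0.036, adjusted p = 3.24e-09). In both genes all coculture libraries were below all monoculture libraries. In the same complexes ORC1 was called higher (0.49), and RPA2 (0.06) and RPA3 (-0.18) did not pass.

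RFC1, the large subunit of the clamp loader, had 48.9, 49.5, 50.6 and 52.4 CPM in coculture, against 61.1, 61.3, 57.6 and 56.6 CPM in monoculture (log2 fold change -0.23, adjusted p = 0.000646). TOPBP1, a scaffold for origin firing and checkpoint signalling, had 52.4, 45.5, 50.8 and 48.8 CPM in coculture, against 59.2, 56.4, 55.6 and 55.0 CPM in monoculture (log2 fold change -0.20, adjusted p = 0.00837). ORC6 had 7.02, 6.97, 7.75 and 5.66 CPM in coculture, against 7.82, 8.08, 8.92 and 8.68 CPM in monoculture (log2 fold change -0.30, adjusted p = 0.0218). None of the 3 overlapped between cultures, yet TOPBP1 lost its call without coculture replicate 2 (adjusted p = 0.0553), and ORC6 without monoculture replicate 3 or 4 or coculture replicate 4 (0.0636, 0.0534 and 0.0962). RFC3 (-0.19, adjusted p = 0.043), whose groups overlapped, lost its call in 6 of the 8 refits that leave out 1 library of this comparison.

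Past a 1.2-fold change, tested with edgeR's glmTreat, 12 of the 47 genes were called higher and 2 lower in proliferation, against 9.5% and 10.3% of all genes. Scaled by library totals alone, 21 were called higher and 9 lower, and 39.5% of the calls over all genes were higher, against 51.3% with TMM. The genes with higher and lower calls also differed in median genomic span, introns included. The annotated span in the deposited table had a median of 15.8 kb (6.26 to 60.4 kb) for the 22 genes called higher, 60.9 kb (8.33 to 124 kb) for the 6 called lower and 20.9 kb (3.2 to 334 kb) for the 19 not called. This is a description of unequal groups with overlapping ranges, and it was neither tested nor set against the spans of all genes.

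**Figure D2:**
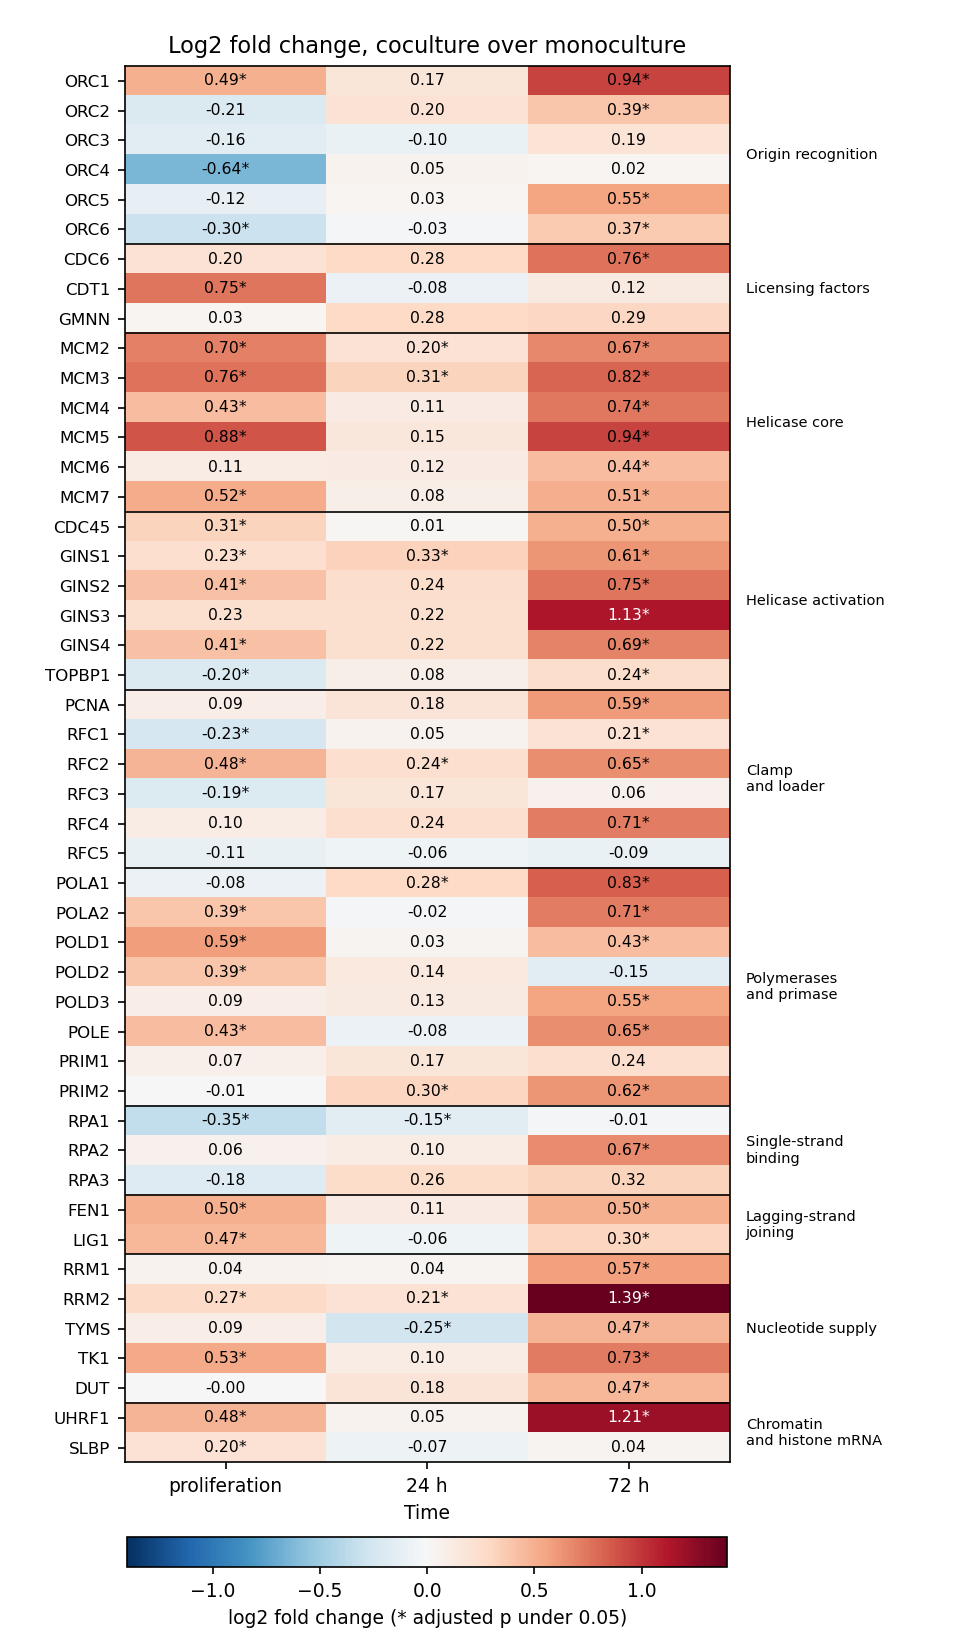
Log2 fold change of coculture over monoculture for each of the 47 genes (rows, grouped by role) in proliferation, at 24 h and at 72 h (columns); red is higher and blue lower in coculture, and an asterisk marks an adjusted p under 0.05. The 72 h column holds 36 calls, all red, the 24 h column 9 calls, and the blue calls in proliferation include ORC4 (-0.64) and RPA1 (-0.35).

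At 24 h of differentiation few replication genes differed between cultures. Of the 47 genes 7 were called higher and 2 lower in coculture, or 14.9% and 4.26%, against 11.5% and 12.2% of all genes. The log2 fold change was above 0 for 37 of the 47 genes, called or not, with a median of 0.12, against -0.00 over all genes. Groups were apart for 6 genes that were higher and 1 that was lower, against 12.1% and 12.3% of all genes. No replication gene passed the test against a 1.2-fold change, which 1.34% of all genes passed upward and 1.9% downward.

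GINS1, of the GINS complex, had 26.2, 26.0, 21.5 and 22.0 CPM in coculture, against 18.3, 19.1, 17.7 and 21.0 CPM in monoculture (log2 fold change 0.33, SE 0.073, adjusted p = 0.00118). POLA1, the catalytic subunit of the polymerase that starts new strands, had 35.9, 40.1, 35.6 and 34.1 CPM in coculture, against 27.7, 30.3, 30.6 and 31.5 CPM in monoculture (log2 fold change 0.28, SE 0.057, adjusted p = 0.000529). MCM3 had 32.4, 37.0, 30.9 and 34.3 CPM in coculture, against 22.8, 28.2, 28.5 and 28.6 CPM in monoculture (log2 fold change 0.31, adjusted p = 0.00164). In each of these 3 genes all coculture libraries were above all monoculture libraries. RFC2 had 25.8, 28.4, 26.0 and 27.7 CPM in coculture, against 21.1, 24.3, 22.8 and 23.04 CPM in monoculture (log2 fold change 0.24, adjusted p = 0.00465). PRIM2, the large primase subunit, had 6.94, 7.84, 6.36 and 7.47 CPM in coculture, against 5.72, 6.06, 5.58 and 5.90 CPM in monoculture (log2 fold change 0.30, adjusted p = 0.0263). Neither overlapped between cultures.

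MCM2 (0.20, adjusted p = 0.0255) and RRM2 (0.21, adjusted p = 0.0338) were called higher with overlapping groups. RPA1 was again lower, at 132, 130, 135 and 138 CPM in coculture, against 148, 151, 144 and 153 CPM in monoculture, without overlap (log2 fold change -0.15, SE 0.036, adjusted p = 0.00212). TYMS, thymidylate synthase, had 33.1, 35.02, 32.0 and 32.2 CPM in coculture, against 33.8, 42.4, 40.3 and 40.7 CPM in monoculture, and the groups overlapped through monoculture replicate 1 (log2 fold change -0.25, SE 0.065, adjusted p = 0.0046).

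Only 4 genes were called higher at 24 h without monoculture replicate 1, coculture replicate 2 or coculture replicate 4, since MCM2, PRIM2 and RRM2 then missed the threshold. Within lane 6, which holds coculture replicates 1 and 2 and all 4 monoculture libraries, 7 genes were called higher and 1 lower, with a median of 0.17. Of the calls in the full fit, GINS1 (0.45), MCM3 (0.35), POLA1 (0.34), RRM2 (0.26), MCM2 (0.25), RFC2 (0.24) and RPA1 (-0.18) were kept there. PRIM2 (0.34, adjusted p = 0.0789) and TYMS (-0.21, adjusted p = 0.0994) were not. Coculture replicate 2 is the library with 4.07% nuclear ribosomal RNA. Without the 4 libraries rich in ribosomal RNA, MCM2 (adjusted p = 0.104), RRM2 (adjusted p = 0.088) and PRIM2 (adjusted p = 0.0938) had no call at 24 h.

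At 72 h most of the machinery was higher in coculture, from helicase and polymerases to nucleotide supply. Of the 47 genes 36 were called higher, or 76.6%, and none lower, against 25.1% and 25.4% of all genes; at an unadjusted p under 0.05 the counts were 38 and 0, and DESeq2 called 37 and 0. The median log2 fold change was 0.55, against -0.00 over all genes. Coculture libraries were wholly above monoculture libraries for 34 genes and wholly below for 0, against 21.1% and 20.8% of all genes. Past a 1.2-fold change 30 genes were called higher and 0 lower, against 9.58% and 8.22%. All 6 helicase core genes, all 6 helicase activation genes, all 5 nucleotide supply genes, 6 of 8 polymerase and primase genes, 4 of 6 clamp and loader genes and 4 of 6 origin recognition genes were among the 36.

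RRM2, the small subunit of ribonucleotide reductase that is made in S phase, had the largest difference. It had 38.0, 47.3, 39.2 and 39.0 CPM in coculture, against 16.2, 16.4, 13.9 and 15.5 CPM in monoculture (log2 fold change 1.39, SE 0.086, adjusted p = 3.36e-14). UHRF1 followed, with 12.5, 15.01, 10.3 and 14.2 CPM in coculture, against 5.85, 6.15, 4.70 and 5.69 CPM in monoculture (log2 fold change 1.21, SE 0.11, adjusted p = 1.66e-10). In both genes the lowest coculture library was far above the highest monoculture library. The other nucleotide supply genes had smaller differences: TK1 0.73, RRM1 0.57, TYMS 0.47 and DUT 0.47.

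GINS3, of the GINS complex, had 2.07, 3.19, 3.50 and 2.66 CPM in coculture, against 1.35, 1.64, 1.16 and 0.961 CPM in monoculture (log2 fold change 1.13, SE 0.22, adjusted p = 9.97e-05). ORC1, the origin recognition subunit whose level follows the cell cycle in human cells, had 1.90, 1.91, 1.75 and 1.90 CPM in coculture, against 0.870, 0.790, 0.966 and 1.33 CPM in monoculture (log2 fold change 0.94, SE 0.21, adjusted p = 0.000463). Their groups did not overlap, though these are the lowest counts of the list, down to 13 for GINS3 and 14 for ORC1, and their SEs are the widest of the 47 at 72 h. MCM5 had 21.6, 24.2, 23.1 and 24.2 CPM in coculture, against 12.1, 12.2, 10.8 and 13.6 CPM in monoculture (log2 fold change 0.94, SE 0.072, adjusted p = 3.94e-12).

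The other core subunits ranged from 0.44 (MCM6) to 0.82 (MCM3), and the other helicase activation genes from 0.24 (TOPBP1) to 0.75 (GINS2). CDC6, at 0.76, was the licensing factor called. Among polymerase genes POLA1 (0.83), POLA2 (0.71), POLE (0.65), PRIM2 (0.62), POLD3 (0.55) and POLD1 (0.43) were called, and of the clamp and its loader RFC4 (0.71), RFC2 (0.65), PCNA (0.59) and RFC1 (0.21). RPA2 (0.67), FEN1 (0.50), ORC5 (0.55) and CDC45 (0.50) were called as well. The 11 genes not called were ORC3 (0.19), ORC4 (0.02), CDT1 (0.12), GMNN (0.29), RFC3 (0.06), RFC5 (-0.09), POLD2 (-0.15), PRIM1 (0.24), RPA1 (-0.01), RPA3 (0.32) and SLBP (0.04). Without monoculture 72 h replicate 2 or 4, RFC5 was called lower (-0.13 each time, adjusted p = 0.0364 and 0.0387), which makes the count of lower calls 1.

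The smallest called differences at 72 h were those of RFC1, TOPBP1, LIG1, ORC6 and ORC2. RFC1 had 46.6, 46.7, 45.3 and 44.5 CPM in coculture, against 41.0, 45.2, 36.7 and 34.9 CPM in monoculture, and the groups overlapped (adjusted p = 0.0035). TOPBP1 had 26.5, 29.4, 28.6 and 26.7 CPM in coculture, against 21.1, 26.5, 21.6 and 25.0 CPM in monoculture (adjusted p = 0.00744). LIG1 had 22.3, 22.9, 21.2 and 19.5 CPM in coculture, against 17.2, 19.1, 16.9 and 16.2 CPM in monoculture (log2 fold change 0.30, adjusted p = 0.000949). TOPBP1 and LIG1 did not overlap between cultures, TOPBP1 by a narrow margin. ORC6 had 5.81, 4.64, 4.08 and 5.07 CPM in coculture, against 4.54, 3.38, 3.15 and 3.99 CPM in monoculture, with overlap (log2 fold change 0.37, adjusted p = 0.0219). ORC2 had 10.1, 11.4, 12.3 and 9.29 CPM in coculture, against 8.27, 8.97, 7.21 and 8.35 CPM in monoculture, without overlap (log2 fold change 0.39, adjusted p = 0.00288).

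Without the 4 libraries rich in ribosomal RNA 33 genes were called higher at 72 h and 0 lower, and ORC6, RFC1 (0.08) and LIG1 (0.22) were no longer among them. ORC6 also lost its call without monoculture replicate 2 or 3 or coculture replicate 1 or 4, and TOPBP1 without monoculture replicate 1 (adjusted p = 0.0504). With sequencing lane as a term, whose effect is read from the coculture 24 h libraries alone, 35 genes were called higher and 0 lower with a median of 0.66, and 34 of the 36 kept their call. Scaled by library totals alone in place of TMM, 42 genes were called higher and 0 lower, but 75.3% of the calls over all genes were then higher, against 49.7% with TMM, and RPA1 turned to 0.12.

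ORC6, RFC1 and TOPBP1 thus had calls in opposite directions, lower in proliferating coculture and higher in coculture at 72 h, with none at 24 h. They are 3 of the 47 genes, near the 6.67% of all genes with this pattern. In the direct tests of change given below, ORC6 had no call, and RFC1 and TOPBP1 were called only between proliferation and 24 h, upward. The change from proliferation to 72 h was not tested. TYMS was called lower at 24 h (-0.25) and higher at 72 h (0.47), a pattern of 0.226% of all genes. Over the 3 times, 14 genes were called higher in proliferation and at 72 h but not at 24 h (3.37% of all genes), among them MCM4, MCM5, MCM7, POLE, FEN1, TK1 and UHRF1. Another 11, including PCNA, RRM1, MCM6 and CDC6, were called higher at 72 h and had no call at the other times (7.06% of all genes). GINS1, MCM2, MCM3, RFC2 and RRM2 were called higher at all 3 times (2.02% of all genes). CDT1, POLD2 and SLBP were called higher in proliferation alone (11.1% of all genes), and GMNN, ORC3, PRIM1, RFC5 and RPA3 had no call at any time (19.9%). A call at one time and none at another is no test of the change between them, which follows after the changes over time.

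**Figure D3:**
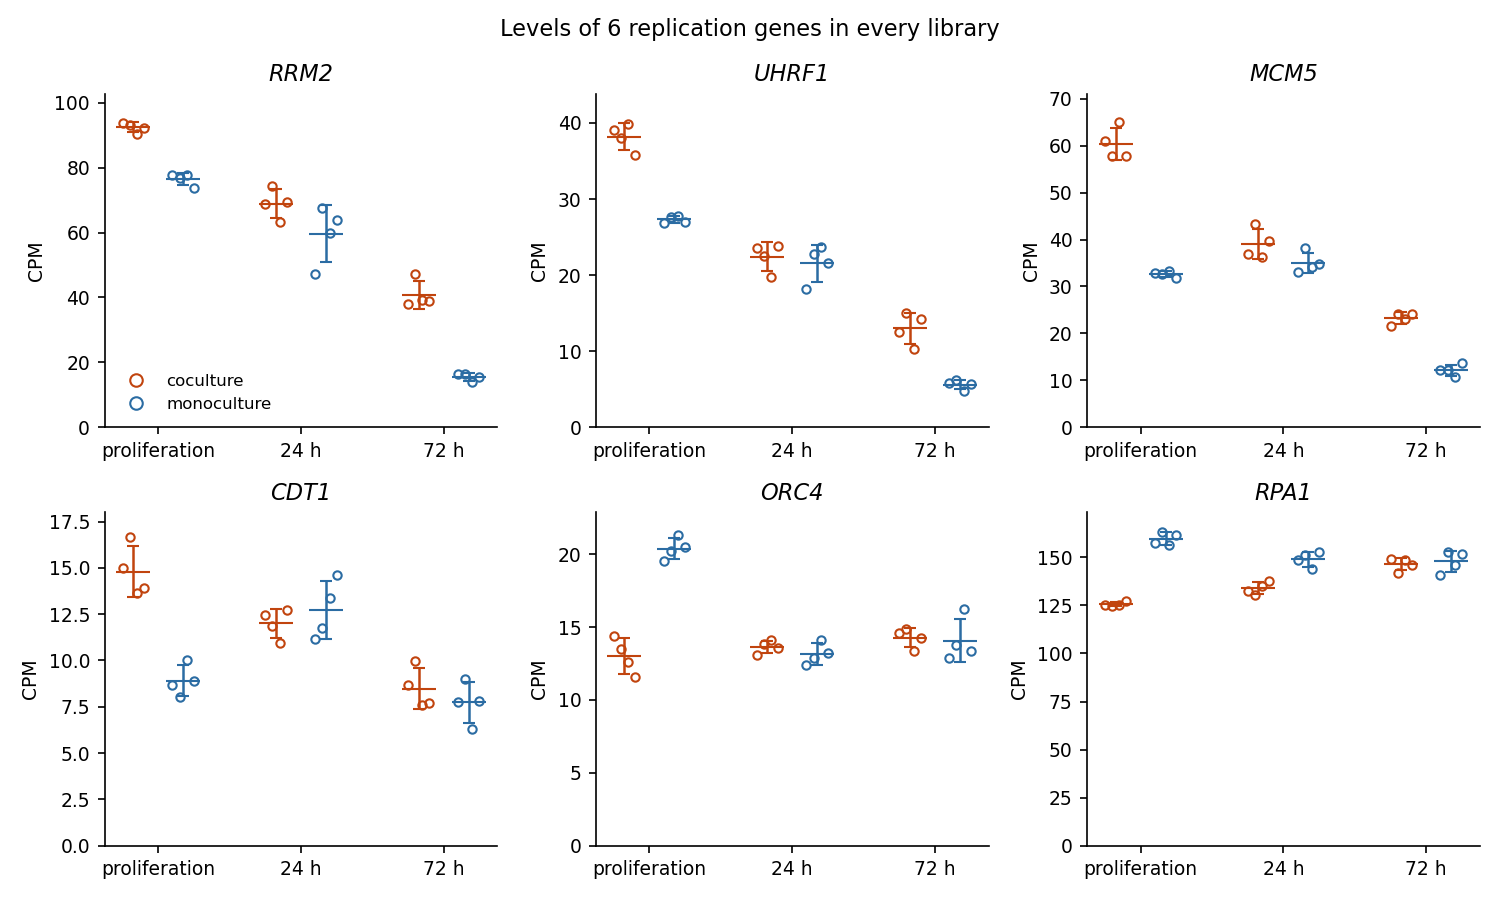
Levels (CPM, y axes from 0) of RRM2, UHRF1, MCM5, CDT1, ORC4 and RPA1 in every library by time (x axis) and culture; circles are libraries, and the line and bars are the mean and SD of 4. RRM2 in coculture at 72 h lies at 38.0 to 47.3 CPM and in monoculture at 13.9 to 16.4 CPM, CDT1 and ORC4 differ between cultures in proliferation, and RPA1 is lower in coculture in proliferation and at 24 h.

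Over time, most of the replication genes fell in both cultures, and from 24 h to 72 h the median fall was larger in monoculture. In coculture 29 of the 47 genes were lower and 1 higher at 24 h than in proliferation (22.2% and 21% of all genes; median of the 47 genes -0.34). In monoculture 28 were lower and 6 higher (34.2% and 34.3% of all genes; median -0.31). In coculture the largest falls were those of UHRF1 (-0.76), FEN1 (-0.64) and ORC1 (-0.63), the smallest called falls those of SLBP (-0.15) and RFC5 (-0.21), and RPA1 rose by 0.09 (adjusted p = 0.0377). In monoculture TOPBP1 (-0.75), POLA1 (-0.71) and ORC4 (-0.63) fell most, while CDT1 (0.51), POLD2 (0.30) and POLD1 (0.29) rose most. Libraries of the times did not overlap for 29 falling genes and 1 rising gene in coculture (20.2% and 19.5% of all genes) and for 29 and 2 in monoculture (30.1% and 30%). Past a 1.2-fold change 14 genes fell and 0 rose in coculture (3.89% and 6.21% of all genes), and 14 fell and 1 rose in monoculture (18.8% and 19.9%). Within lane 6 the coculture counts at 24 h were 21 lower and 0 higher. The rise of RPA1 in coculture was lost in 5 of the 8 refits without 1 library, and the count of rises in monoculture was 3 without monoculture 24 h replicate 2 or 3. Scaled by library totals alone, POLD2 (0.11, adjusted p = 0.307) and POLD1 (0.10, adjusted p = 0.222) had no call in monoculture and 1 gene rose.

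From 24 h to 72 h, 36 genes fell and 1 rose in coculture (23.8% and 24.4% of all genes; median of the 47 genes -0.42). In monoculture 42 fell and 0 rose (26.6% and 27.3% of all genes; median -0.85), and DESeq2 and an unadjusted p under 0.05 gave 0 rises too. In coculture GINS2 (-0.94), ORC1 (-0.89) and POLE (-0.84) fell most, POLD2 (-0.25) and SLBP (-0.28) had the smallest called falls, and RPA1 rose by 0.13 (adjusted p = 0.00415). In monoculture UHRF1 (-1.94, SE 0.10), RRM2 (-1.94, SE 0.083) and ORC1 (-1.67, SE 0.19) fell most, and RFC1 (-0.20), ORC2 (-0.35) and ORC3 (-0.36) had the smallest called falls. Without the libraries rich in ribosomal RNA, RFC1 (-0.08, adjusted p = 0.287) and ORC2 (-0.28, adjusted p = 0.0642) had no call in monoculture. Libraries of the times did not overlap for 33 falling genes and 1 rising gene in coculture (23.1% and 23.2% of all genes) and for 38 and 0 in monoculture (20% and 21.3%). Past a 1.2-fold change 23 genes fell and 0 rose in coculture (9.2% and 9.33% of all genes), and 37 fell and 0 rose in monoculture (11.8% and 10.6%). Within lane 7, which holds coculture 24 h replicates 3 and 4 and the coculture 72 h group, 33 genes were lower and 0 higher at 72 h (median -0.38), a fit added after the data were seen.

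As a share of its own proliferating culture, the median gene stood at 60.0% in coculture and 46.3% in monoculture at 72 h. The share was larger in coculture for 40 of the 47 genes. That count was not taken over all genes, and the difference between cultures in the change from proliferation to 72 h was not tested. RRM2 kept 44.2% of its proliferation level in coculture and 20.3% in monoculture, and UHRF1 34.0% and 20.5%, in the same order. MCM5 stood at 38.5% in coculture and 37.2% in monoculture, having started higher in coculture. ORC4 stood at 110% of its proliferation level in coculture and 69.0% in monoculture. The widest span between group means, highest over lowest, was 6.83 times for UHRF1, 5.95 for RRM2, 5.41 for ORC1 and 4.97 for MCM5, and the narrowest were 1.27 for RPA1 and 1.33 for RFC5.

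**Figure D4:**
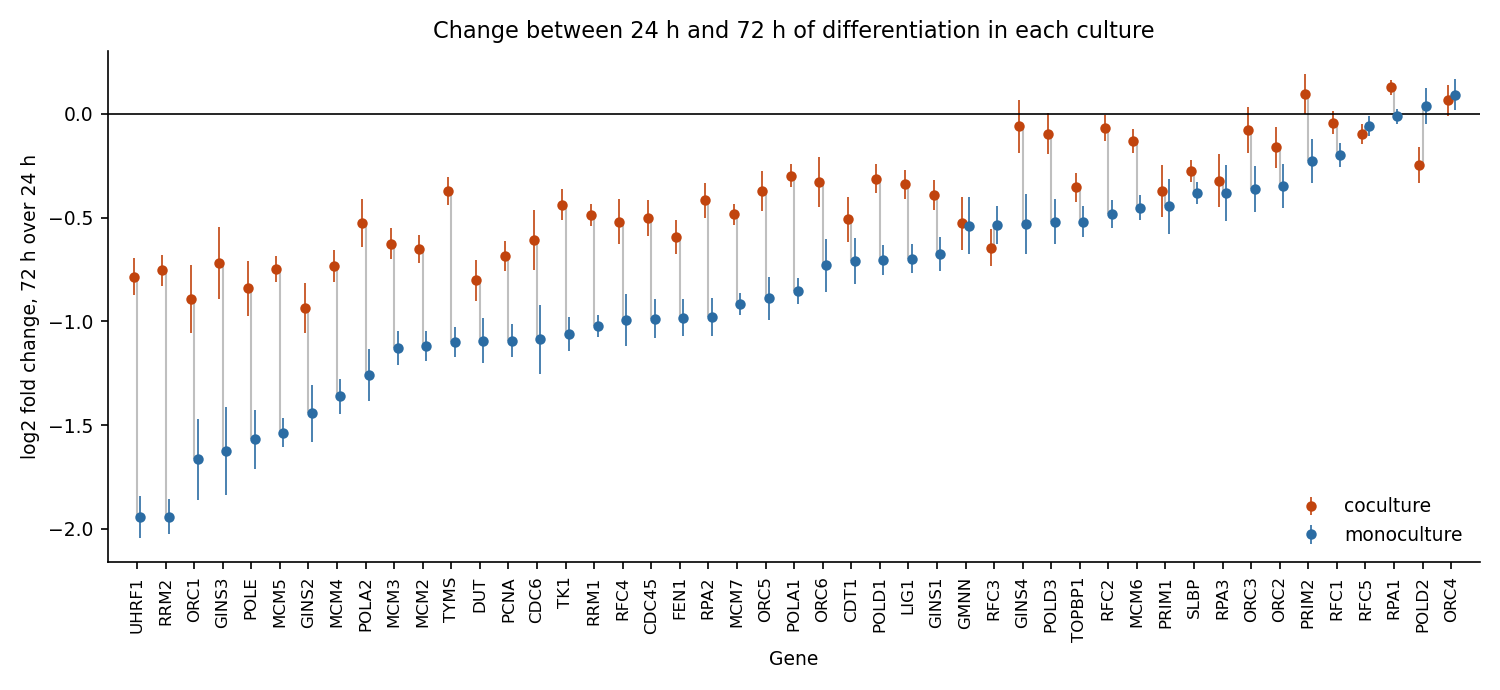
Log2 fold change between 24 h and 72 h of differentiation (y axis, 72 h over 24 h) for each of the 47 genes (x axis, ordered by the monoculture value), with coculture and monoculture side by side; bars are SE and the grey line joins the cultures. UHRF1 and RRM2, both at -1.94 in monoculture, stand at -0.78 and -0.75 in coculture, and the values of RFC5 and ORC4 lie close together.

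The change of the coculture effect between times was tested directly, as the difference of 2 differences. Between proliferation and 24 h the effect moved up for 8 genes and down for 17, or 17% and 36.2% of the 47 genes, against 24.3% and 26.2% of all genes. CDT1 (-0.83, SE 0.14, adjusted p = 2.23e-05), MCM5 (-0.73, SE 0.083, adjusted p = 4.15e-08) and POLD1 (-0.55, SE 0.095, adjusted p = 2e-05) had the largest downward moves. ORC4 (0.69, SE 0.10, adjusted p = 2.6e-06), RPA3 (0.43, adjusted p = 0.037) and ORC2 (0.41, adjusted p = 0.0139) had the largest upward moves. By role, 5 of 6 helicase core genes and both Okazaki fragment genes moved down. Within lane 6 the counts were 7 up and 11 down, and RPA3 was then not called (adjusted p = 0.117). RPA3 also lost its call in 8 of the 16 refits without 1 library. Past a 1.2-fold change 1 gene moved up and 6 moved down, against 9.99% and 10.4% of all genes.

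Between 24 h and 72 h the effect moved up for 28 of the 47 genes and down for 0, or 59.6%, against 12% and 11.7% of all genes; at an unadjusted p under 0.05 the counts were 33 and 1, and DESeq2 called 27 and 0. The median change was 0.41, against 0.00 over all genes. RRM2 (1.19, SE 0.11, adjusted p = 3.21e-09), UHRF1 (1.16, SE 0.14, adjusted p = 2.15e-07) and GINS3 (0.91, SE 0.28, adjusted p = 0.0175) moved most. LIG1 (0.36), MCM6 (0.32) and RPA1 (0.14, adjusted p = 0.0475) had the smallest called moves, and the call of RPA1 was lost in 11 of the 16 refits without 1 library. Leaving out 1 library at a time gave 22 to 28 upward calls. Without the libraries rich in ribosomal RNA there were 23, and LIG1 had no call (0.29, adjusted p = 0.0796). Past a 1.2-fold change 10 genes moved up and 0 down, against 3.62% and 2.13% of all genes. All 6 helicase core genes, 4 of 5 nucleotide supply genes and 5 of 8 polymerase and primase genes were among the 28. With lane as a term, read from the coculture 24 h libraries, 27 genes moved up and 0 down with a median of 0.47, and 26 of the 28 kept their call. Of the 28 genes, 15 had moved down between proliferation and 24 h. Both tests use the same 24 h libraries with opposite sign, so they are not independent. The change of the effect from proliferation to 72 h was not tested.

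Other replication genes outside the 47 were read from a list of 67, of which the table holds 64. In proliferation 19 were called higher and 17 lower in coculture (median 0.00; 30.3% and 28.7% of all genes), at 24 h 7 and 2 (median 0.08; 11.5% and 12.2%), and at 72 h 45 and 4 (median 0.36; 25.1% and 25.4%). In proliferation TONSL (0.61), a reader of new chromatin, the thymidylate kinase DTYMK (0.57) and CDCA7 (0.53) were highest, and RIF1 (-0.49), a regulator of origin timing, USP37 (-0.48) and the deoxycytidine kinase DCK (-0.46) lowest. At 24 h HELLS (0.51), EXO1 (0.46) and DSCC1 (0.37) were highest, and ATRIP (-0.23) and POLD4 (-0.21) were the 2 called lower. At 72 h the topoisomerase TOP2A led, with 49.6 ± 3.67 CPM in coculture and 16.1 ± 2.86 CPM in monoculture (SD, n = 4 each; log2 fold change 1.63, SE 0.081, adjusted p = 2.84e-16). CLSPN (1.40), which carries checkpoint signals at the fork, and ATAD5 (1.26), which unloads the clamp, came next, and LRWD1 (-0.31), NME1 (-0.24) and ATRIP (-0.23) were lowest. The kinase CDC7 and its activator DBF4, which fire origins, were lower in proliferating coculture (-0.29 each) and higher in coculture at 72 h (0.33 and 0.72). Neither stood among the highest or lowest genes named above, and both were picked from the list after their values were seen. Of all genes, 6.67% were called lower in proliferation and higher at 72 h with no call at 24 h. Another 2.87% had those calls with a higher call at 24 h. CDC7 and DBF4 therefore do not stand for the list.

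Genes that control the G1 to S transition were read from a list of 34, of which 30 are in the table. Coculture had 12 called higher and 7 lower in proliferation (median 0.05), against 30.3% and 28.7% of all genes. It had 1 and 2 at 24 h (median 0.02), against 11.5% and 12.2%, and 15 and 4 at 72 h (median 0.24), against 25.1% and 25.4%. E2F1, an activator of replication genes, was at 23.5 ± 2.39 CPM in coculture and 14.8 ± 0.97 CPM in monoculture in proliferation, and at 10.5 ± 1.78 and 6.69 ± 0.71 CPM at 72 h, coculture first (SD, n = 4; log2 fold changes 0.67 and 0.64). CDKN1A, which encodes the cell cycle inhibitor p21, was lower in coculture at all 3 times, by log2 fold changes of -0.46, -0.67 and -0.35. Cyclin D1 (CCND1) was higher in proliferating coculture (0.37) and lower at 24 h (-0.33) and 72 h (-0.32). E2F1, CDKN1A and CCND1 were picked from the list after their values were seen, and E2F1 is not given at 24 h. No adjusted p is given for them, and the other listed genes are not named. The picked genes therefore do not stand for the list, which held calls in both directions at each time. Whether any of them had a part in the levels of the replication genes was not tested.

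The authors' deposited tables of coculture over monoculture gave nearly the same values for the 47 genes, with no log2 fold change more than 0.0122 from the edgeR value. At an adjusted p under 0.05 the authors' deposited table had 22 genes higher and 5 lower in proliferation, 6 and 2 at 24 h, and 35 and 0 at 72 h.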

How the data were processed

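Total RNA libraries of 24 samples were sequenced. The authors deposited a table of read counts per gene, whole numbers that may be rounded RSEM estimates. Per the submitters' processing notes the tools were FastQC, STAR, RSEM and DESeq2, with no version. The genome build was not given in the sources used here. The 3 other deposited tables, per the file headers, hold the authors' log2 fold changes, standard errors and p-values for coculture over monoculture, with gene symbols and positions. The count table has 36 library columns; 12 of them fit no label and were left out.

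The deposited counts were fitted by edgeR 4.0.16 under R 4.3.3: TMM scaling, filterByExpr (0 genes removed), 1 model with 1 mean per group over 24 libraries (18 residual degrees of freedom), quasi-likelihood F tests and Benjamini-Hochberg adjustment over 11937 genes. SEs were obtained by dividing the absolute log2 fold change by the root of its F value, and all groups shared 1 spread per gene. On simulated counts for the 72 h comparison over 11937 genes, 50 of 50 genes changed by 1 (log2) upward, 50 of 50 downward, 37 of 50 changed by 0.5 and 41 of 50 changed by -0.5 were recovered, with 6 false calls. Only those genes were changed in the simulation, while the data had 2995 genes called higher and 3034 called lower at 72 h. It held no lane effect and no library rich in ribosomal RNA. Its recovery and false calls therefore need not hold for the data. Library totals of 11.5 to 34.96 M counts limit the precision of genes with few counts. No 2 libraries of a group were alike within counting noise (chi-square per degree of freedom at least 2.16).

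The 47 genes, the other lists, the roles and the tests were chosen with earlier results of these data known. Values in every library are given for the genes called at each time with the 5 highest and 5 lowest log2 fold changes. They are also given for genes with opposite calls. Left out are MCM2 and RRM2 at 24 h and TYMS at 72 h. For changes over time, changes of the effect and the other replication genes, 3 and 3 are named, with CDC7 and DBF4 named besides. Alternatives were other scalings, DESeq2 1.42.0, a minimum mean of 5 CPM, fits on the groups compared, glmTreat at 1.2-fold, a replicate block, lane terms and left-out libraries.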

Additional observations from a re-analysis of the deposited data

Results flagged for a closer look

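Among 138 groups of 4 libraries, taken over 21 named genes, the summed level and the library totals, 9 held a library apart from the other 3, its gap to the nearest, as a share of the group's range, exceeding Dixon's 95% critical value for 4 samples. Chance flags about 1 in 20 groups. In coculture the libraries apart were 72 h replicate 2 for RRM2 (47.3 CPM, the next at 39.2) and POLD1 (28.1 CPM, the next at 24.7), 72 h replicate 3 for ORC1 (1.75 CPM), 24 h replicate 3 for LIG1 (24.9 CPM), proliferation replicate 2 for PRIM2 (7.89 CPM), and 72 h replicate 4 for its library total (21.4 M counts). In monoculture they were 24 h replicate 1 for MCM3 (22.8 CPM, the next at 28.2), 72 h replicate 1 for PRIM2 (3.96 CPM) and 72 h replicate 3 for RFC2 (14.2 CPM).

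The direct test of the change in the coculture effect passed for 8 genes upward and 17 downward between proliferation and 24 h. Between 24 h and 72 h it passed for 28 upward and 0 downward. Of the 47 genes, 11 had no call in either test. The 12 genes that follow had the 3 highest and 3 lowest called values of each test. RPA3 and RPA1 lost their calls in 8 and 11 of 16 refits without 1 library. Between proliferation and 24 h the coculture effect changed by -0.83 for CDT1, -0.73 for MCM5, -0.55 for POLD1, 0.69 for ORC4, 0.43 for RPA3 and 0.41 for ORC2. Between 24 h and 72 h it changed by 1.19 for RRM2, 1.16 for UHRF1, 0.91 for GINS3, 0.36 for LIG1, 0.32 for MCM6 and 0.14 for RPA1.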

How the results depend on the processing

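Counts of calls given as higher then lower moved by over 1.5 times mainly past a 1.2-fold change (glmTreat, by construction stricter): 12 and 2 in proliferation, 0 and 0 at 24 h, 1 and 14 for monoculture at 24 h against proliferation, 0 and 14 for coculture, 0 and 23 for coculture at 72 h against 24 h, 1 and 6 for the change of the effect by 24 h, and 10 higher for that by 72 h. With lane as a term, or in lane 6 alone, 1 gene was lower at 24 h, 0 rose in coculture by 24 h, and in lane 6 alone 11 effects moved down by 24 h; 0 rose in coculture by 72 h with the lane term and in lane 7 alone. With library totals alone 1 gene rose in monoculture and 0 in coculture by 24 h. That scaling moved the median of all genes by 0.13 at 72 h, where 75.3% of all calls were then higher, against 49.7% with TMM, and 42 of the 47 genes; in proliferation the shares were 39.5% and 51.3%. The cause was not tested.

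Without 1 library in turn, the count was 4 to 10 higher at 24 h, 0 to 1 lower at 72 h, 3 to 6 rises in monoculture and 0 to 1 in coculture by 24 h; the other counts stayed within 1.5 times. Directions of uncalled values turned without 1 library, over ranges of -0.0473 to 0.0391 for PRIM2 in proliferation, -0.027 to 0.0761 for POLD1, -0.0826 to 0.0104 for ORC6 and -0.0152 to 0.108 for UHRF1 at 24 h, and -0.0194 to 0.0979 for ORC4 and -0.0375 to 0.0018 for RPA1 at 72 h. They also turned without the rRNA-rich libraries for POLD1 (-0.0133) and ORC6 (0.0101) at 24 h, with the lane term for ORC4 (-0.0104) and with library totals for RPA1 (0.12, adjusted p = 0.0369) at 72 h.

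Replicate numbers did not pair the libraries: same-numbered libraries had a median correlation of -0.0077 over 60 pairs, 1 of them over 0.1, and 2 of 24 libraries correlated best with their own number. With the replicate block 22 and 6 genes were called in proliferation, 8 and 2 at 24 h and 36 and 0 at 72 h.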
